A study of Rattus norvegicus with 6 samples.

Results

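The 10 genes described here encode the core of the Hippo pathway and its nuclear output: the coactivators YAP (Yap1) and TAZ (Wwtr1), the DNA-binding partners Tead1, Tead2, Tead3 and Tead4, and the kinases Lats1, Lats2, Stk3 and Stk4. They were chosen by gene symbol, and all 10 were present among the 14475 genes of the count table. Their RNA was measured in vascular smooth muscle (VSM) cells grown in culture from soleus feed arteries (SFA), the arteries that carry blood to the soleus muscle. The arteries came from male Fischer rats. The young group held 3 rats aged 4 months and the old group 3 rats aged 24 months, with 1 library of polyadenylated RNA from the cells of each rat. No treatment, stretch or pressure is named for these libraries, and the passage at which RNA was taken is not given in the sources used here. The comparison asked how the cells of old arteries differed from those of young ones.

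YAP and TAZ do not bind DNA themselves. They enter the nucleus and switch on genes through TEAD proteins, and in many cell types they do so when a cell spreads, pulls on a stiff matrix or is stretched. The kinases Stk3 and Stk4 (also called MST2 and MST1) activate Lats1 and Lats2, which phosphorylate YAP and TAZ so that they are held in the cytoplasm or degraded. In smooth muscle, TEAD proteins also bind promoters of muscle genes. The counts give RNA levels alone, and neither phosphorylation nor the place of YAP in the cell was measured.

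Each of the 10 genes had a lower mean level in old VSM cells than in young ones, and the 4 largest log2 fold changes were those of the TEAD genes. Tead4, Tead1 and Tead3 had -0.76, -0.75 and -0.62, and Tead2 had -0.50 with an interval that gave no direction (-1.99 to 0.99). Lats2 and Yap1 had -0.36 and -0.23, and Wwtr1, Stk4, Lats1 and Stk3 lay between -0.17 and -0.07. The median of the 10 was -0.29, beside a median of 0.02 over all genes. None was called in edgeR's quasi-likelihood test, where a call needed an adjusted p below 0.05 and a log2 fold change of 1 or more in either direction. The share of all genes that passed was 0.00691%, so this count of 0 is no result about these genes. At an unadjusted p under 0.05, 5 of the 10 were lower in old (Yap1, Tead1, Tead3, Tead4 and Lats2), beside 11.5% of all genes that were lower at that level. Left-out libraries changed this count: it was 2 without young replicate 2, 2 without young replicate 3 and 3 without old replicate 2. The share of all genes at that level was not computed with a library left out, so these counts have no background beside them. For the same 5 genes every old library lay below every young library, which was the case for 14.7% of all genes (8 of the 10 without old replicate 2).

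**Figure D1:**
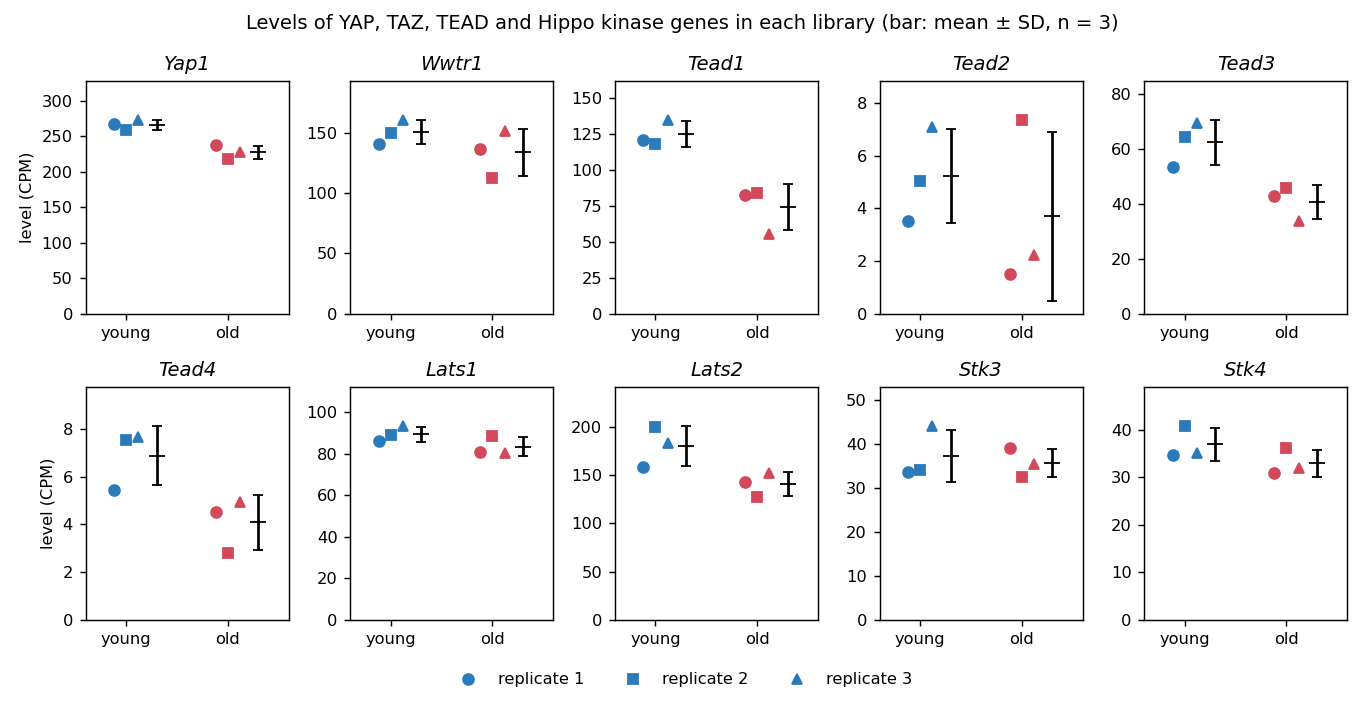
Level of each gene in CPM (counts scaled to normalized library size) in the 3 young (blue) and 3 old (red) libraries, with the replicate number shown by the symbol and the mean ± SD as a black bar. The old libraries of Yap1, Tead1, Tead3, Tead4 and Lats2 all sit below the young ones, and those of the other 5 genes overlap with them.

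Among the coactivators, Yap1 (ENSRNOG00000005933) varied least between replicates. Its level, in counts scaled to library size (CPM), was 267, 259 and 273 in young replicates 1, 2 and 3 and 237, 218 and 227 CPM in old replicates 1, 2 and 3. The groups did not overlap, and the gap between them was small beside the level itself. The young mean was 266 ± 6.74 CPM and the old mean 227 ± 9.50 CPM (SD, n = 3 each), which is 14.7% lower. Yap1 had a log2 fold change of -0.23 (95% interval -0.44 to -0.02, adjusted p = 0.199 from edgeR). With any 1 library left out it stayed between -0.26 and -0.20. The interval therefore held differences from 1.27% to 26.3% lower in old.

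Wwtr1 (ENSRNOG00000016617), the gene of TAZ, had 141, 150 and 161 CPM in the young libraries and 137, 113 and 152 CPM in the old ones. Old replicate 3 lay above young replicates 1 and 2, so the groups overlapped. For Wwtr1 the log2 fold change was -0.17 (95% interval -0.48 to 0.15, adjusted p = 0.463 from edgeR), and it was -0.06 without old replicate 2 and -0.27 without old replicate 3. This interval included no difference as well as a level 28.4% lower in old. The log2 ratio of Wwtr1 to Yap1 counts within a library was -0.83 ± 0.09 (SD, n = 3) in young and -0.77 ± 0.18 (SD, n = 3) in old. That ratio did not differ beyond its spread (difference 0.05, p = 0.800 by a two-sided exact permutation test, whose smallest possible p is 0.1).

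The TEAD proteins bring YAP and TAZ to DNA, and of the 4 genes Tead1 and Tead3 had the narrower spread. Tead1 (ENSRNOG00000015488) had 121, 118 and 135 CPM in the young libraries and 82.9, 84.0 and 55.6 CPM in the old ones. Every old library lay below the lowest young library, with old replicate 3 the lowest. Young libraries averaged 125 ± 8.94 CPM and old libraries 74.2 ± 16.1 CPM (SD, n = 3 each), which is 40.4% lower. The difference of Tead1 on the log2 scale was -0.75 (95% interval -1.17 to -0.33, standard error 0.17, adjusted p = 0.0992 from edgeR). Without old replicate 3 it was -0.58, and without old replicate 2 it was -0.85.

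Tead3 (ENSRNOG00000000506) had 53.5, 64.6 and 69.5 CPM in the young libraries and 42.8, 45.8 and 33.7 CPM in the old ones. As for Tead1, the groups were separate and old replicate 3 was lowest. Tead3 averaged 62.5 ± 8.22 CPM among young and 40.8 ± 6.27 CPM among old libraries (SD, n = 3 each). The difference on the log2 scale was -0.62 (standard error 0.15, 95% interval -0.99 to -0.24, adjusted p = 0.11 from edgeR). Leaving out any 1 library kept it between -0.72 and -0.50.

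Tead4 (ENSRNOG00000005608) and Tead2 (ENSRNOG00000020695) rested on low counts. Tead4 was counted 246, 453 and 377 times among young libraries and 224, 145 and 265 times among old ones, or 5.45, 7.53 and 7.67 CPM against 4.50, 2.79 and 4.94 CPM. The old libraries lay below the young ones, although young replicate 1 and old replicate 3 were close. Its log2 fold change was -0.76 (standard error 0.27, 95% interval -1.41 to -0.10, adjusted p = 0.181 from edgeR), and it was -0.55 without old replicate 2.

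Tead2 was counted 160, 303 and 349 times among young libraries and 75, 383 and 119 times among old ones. Old replicate 2, at 7.37 CPM, was higher than each young library, whereas old replicates 1 and 3 had 1.51 and 2.22 CPM. The log2 fold change of -0.50 (95% interval -1.99 to 0.99, adjusted p = 0.645 from edgeR) thus rested on libraries that went both ways, and it was -1.49 without old replicate 2 and -0.13 without old replicate 1. No direction can be given for Tead2 at this spread.

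Summed over the 4 genes, TEAD levels were 184, 195 and 219 CPM in young and 132, 140 and 96.5 CPM in old, a mean 38.4% lower. The make-up of this sum differed little. Tead1 held 62.6% ± 2.97 of the TEAD counts (SD, n = 3) in young and 60.2% ± 2.65 (SD, n = 3) in old, and Tead3 held 31.3% ± 2.04 and 33.4% ± 1.39. These shares are of counts and not corrected for transcript length. On the log2 scale the share of Tead1 differed by -0.06 (p = 0.4) and that of Tead3 by 0.09 (p = 0.3) between old and young, by two-sided exact permutation tests. Tead2 held between 1.93% and 3.24% in the young libraries, with old replicates on either side, and Tead4 held between 1.99% and 5.12% in the old libraries, a range that included each young library. Over the 7 ratios tested in all, the lowest p was 0.2 and each adjusted p was 0.9.

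**Figure D2:**
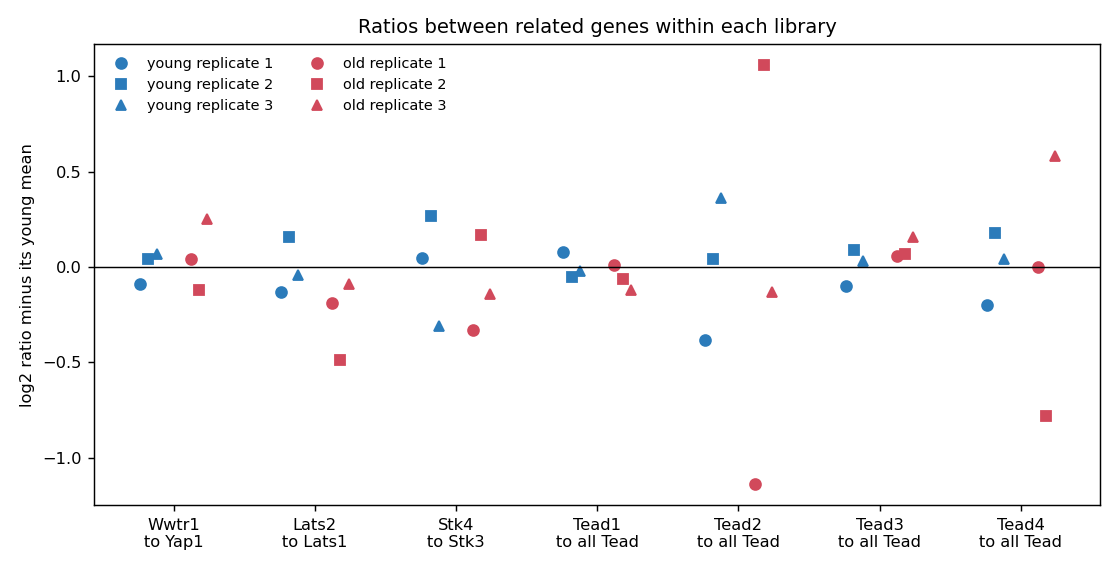
Log2 ratio of the counts of related genes within each library, drawn as the difference from the mean of the young libraries (blue, young; red, old; symbols, replicates). Young and old overlap for each ratio, and the widest scatter is in the shares of Tead2 and Tead4 among the old libraries.

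Among the kinases, Lats2 (ENSRNOG00000056343) was the one whose groups did not overlap. Lats2, which phosphorylates YAP and TAZ and is itself a gene that YAP and TAZ can induce, had 158, 200 and 183 CPM in the young libraries and 143, 127 and 152 CPM in the old ones. Young libraries averaged 180 ± 20.8 CPM and old ones 141 ± 12.4 CPM (SD, n = 3 each). This is a log2 fold change of -0.36 (standard error 0.12, 95% interval -0.65 to -0.06, adjusted p = 0.173 from edgeR), with a range of -0.45 to -0.28 over left-out libraries. The gap between the lowest young library (158 CPM) and the highest old one (152 CPM) was less than the SD within either group.

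Lats1 (ENSRNOG00000014916), its close relative, had 85.9, 88.9 and 93.3 CPM in young and 80.9, 88.6 and 80.4 CPM in old. Old replicate 2 lay among the young libraries. Lats1 had a log2 fold change of -0.10 (95% interval -0.31 to 0.11, adjusted p = 0.503 from edgeR), which holds a difference of at most 19.3% lower in old. The log2 ratio of Lats2 to Lats1 was 1.01 ± 0.15 (SD, n = 3) in young and 0.75 ± 0.21 (SD, n = 3) in old. This difference of -0.25 had a p of 0.200 in a two-sided exact permutation test. The smallest possible p of that test is 0.1 here, so it could not fall below 0.05.

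The groups overlapped for both upstream kinases. Stk3 (ENSRNOG00000011278) had 33.6, 34.0 and 44.0 CPM in young and 38.9, 32.5 and 35.3 CPM in old, with the groups mixed. Its log2 fold change was -0.07 (95% interval -0.40 to 0.27, adjusted p = 0.792 from edgeR) and 0.07 without young replicate 3. Stk4 (ENSRNOG00000013529) had 34.6, 40.8 and 35.2 CPM in young and 30.8, 36.2 and 31.9 CPM in old. Old replicate 2 was above young replicates 1 and 3. For Stk4 the log2 fold change was -0.16 (95% interval -0.43 to 0.10, adjusted p = 0.406 from edgeR). The log2 ratio of Stk4 to Stk3 scattered around 0 in both groups, from -0.32 to 0.26 in young and from -0.34 to 0.16 in old (p = 0.700, two-sided exact permutation test).

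**Figure D3:**
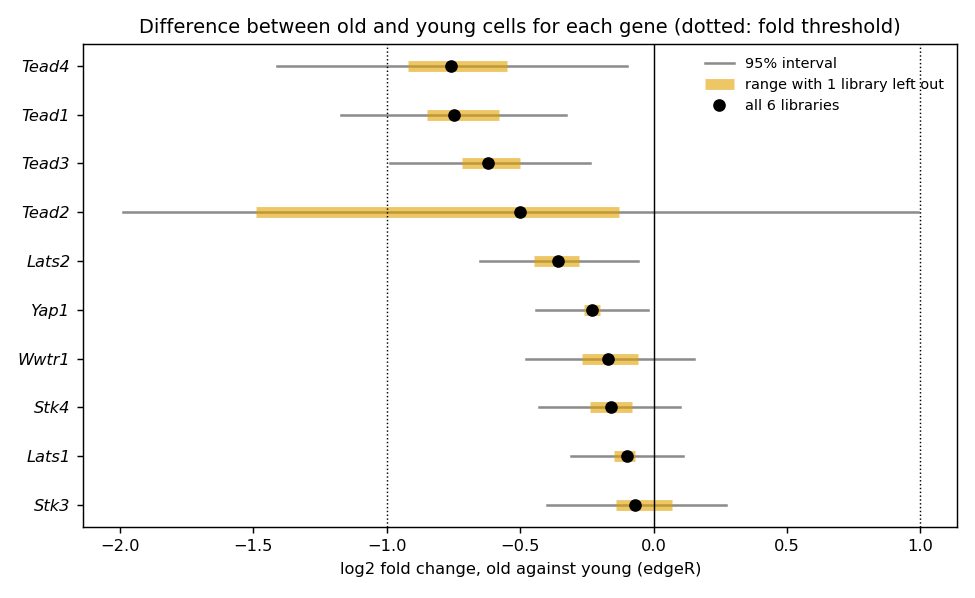
Log2 fold change of each gene, old against young, in edgeR (black point), with its 95% interval (grey line), the range when 1 library at a time is left out (yellow band) and the fold threshold of 1 (dotted lines). The intervals of Tead4, Tead1, Tead3, Lats2 and Yap1 lie below 0, and the band of Stk3 crosses 0.

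DESeq2, the tool the study used, gave Tead1 an adjusted p of 0.00479, Tead3 0.0130 and Yap1 0.0467 on the same counts. Over all 14 alternatives the adjusted p ranged from 0.00479 to 0.27 for Tead1, from 0.0130 to 0.298 for Tead3 and from 0.0467 to 0.403 for Yap1, and DESeq2 gave the lowest value each time. These were 3 of the 10 genes, beside 6.61% of all genes that were lower in old with an adjusted p under 0.05. Tead4 and Lats2 had adjusted p of 0.0751 and 0.0850 in DESeq2, and the other 5 genes lay between 0.447 and 0.826. Since each of the 10 differed by less than 1 on the log2 scale, none was called under the study's rule with the fold threshold, which 5.56% of all genes passed. limma-voom gave no adjusted p below 0.101 for the 10 genes. It put 5 of them at an unadjusted p under 0.05, beside 3347 of all 14475 genes in either direction.

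The rest of the pathway was read from lists of genes grouped by role. The table held 52 other Hippo genes. Old means were lower for 31 and higher for 21 of them, and their median log2 fold change was -0.08. At an unadjusted p under 0.05 in edgeR, 12 were lower and 3 were higher, beside 11.5% and 11.2% of all genes. edgeR called none of the 52, beside 0.00691% of all genes, so that 0 is no result about these genes. DESeq2 gave an adjusted p under 0.05 to 7 that were lower and 2 that were higher, beside 6.61% and 5.60% of all genes. The 5 adaptors that work with the kinases (Sav1, Mob1a, Mob1b, Nf2 and Wwc2) lay between -0.03 and 0.30, none with an unadjusted p under 0.05. Stk38l, a kinase of the same family as Lats1 and Lats2, had the lowest p of the 52, at 82.5, 85.9 and 91.8 CPM in young and 54.9, 40.7 and 39.9 CPM in old (log2 fold change -0.94, adjusted p = 0.0559 from edgeR). Its relative Stk38 had a log2 fold change of 0.25 and Map4k5, another kinase that can activate Lats kinases, of 0.39, both with old libraries above the young ones. Tnik, a kinase of the same wider group as Map4k5, had -1.58 with overlapping groups.

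The Rassf proteins bind Stk3 and Stk4 through a shared helical domain. Rassf3 and Rassf1 had log2 fold changes of -0.90 and -0.53, and Rassf2 went the other way. Rassf2 had 2.33, 2.81 and 2.38 CPM in young and 12.1, 6.93 and 33.9 CPM in old (log2 fold change 2.81, adjusted p = 0.0823 from edgeR). In the STRIPAK scaffold, which carries a phosphatase to Stk3 and Stk4, Strn3, Mob4 and Slmap had -0.38, -0.28 and -0.25. The 8 cortical and junctional regulators were split, with 4 lower and 4 higher and a median of -0.04. Of the angiomotins among them, Amot had -0.82 and Amotl2 -0.60, whereas Amotl1, named after its values were seen, had 0.19 with every old library above the young ones. Of the 3 LIM proteins that bind Lats kinases, Ajuba had -0.64, Wtip -0.21 and Limd1 0.05. Vgll3, which competes with YAP for TEAD proteins, had -0.70. None of the 9 genes for 14-3-3 proteins and YAP degradation had an unadjusted p under 0.05 in edgeR, beside 11.5% of all genes lower and 11.2% higher at that level. In limma-voom 1 of them was below it, beside 3347 of all 14475 genes. This was Ywhah, at a log2 fold change of -0.61 in edgeR, named after its values were seen.

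The target genes of YAP and TAZ went both ways. All 23 targets listed were in the table. Old means were lower for 15 and higher for 8 of them, and their median log2 fold change was -0.30. At an unadjusted p under 0.05 in edgeR, 9 were lower and 2 higher, beside 11.5% and 11.2% of all genes. Lats2 is on this list as well as among the 10 genes, and without it the median was -0.23. Amotl2, Ajuba and Ptpn14 stand both here and among the other Hippo genes, so Amotl2 and Ajuba are counted as lower in both lists. Ankrd1, a muscle ankyrin repeat gene, had 3.79, 6.73 and 18.2 CPM in young and 0.462, 0.308 and 0.709 CPM in old (log2 fold change -4.27, adjusted p = 0.0600 from edgeR). Crim1, Tgfb2, Ccn1 and Arhgef17 had log2 fold changes of -1.83, -2.47, -1.27 and -0.55, while Gadd45a, a stress-induced gene, had 1.82. DESeq2 called Ankrd1, Crim1, Tgfb2 and Ccn1 as lower and Gadd45a as higher under the study's rule, beside 5.56% of all genes. edgeR called none of the 23, beside 0.00691% of all genes, so that 0 is no result about the targets. Ccn2, the target most used to read YAP activity and named here after its values were seen, had 5062, 6403 and 6602 CPM in young and 5088, 5767 and 7409 CPM in old (log2 fold change 0.02, 95% interval -0.54 to 0.57).

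**Figure D4:**
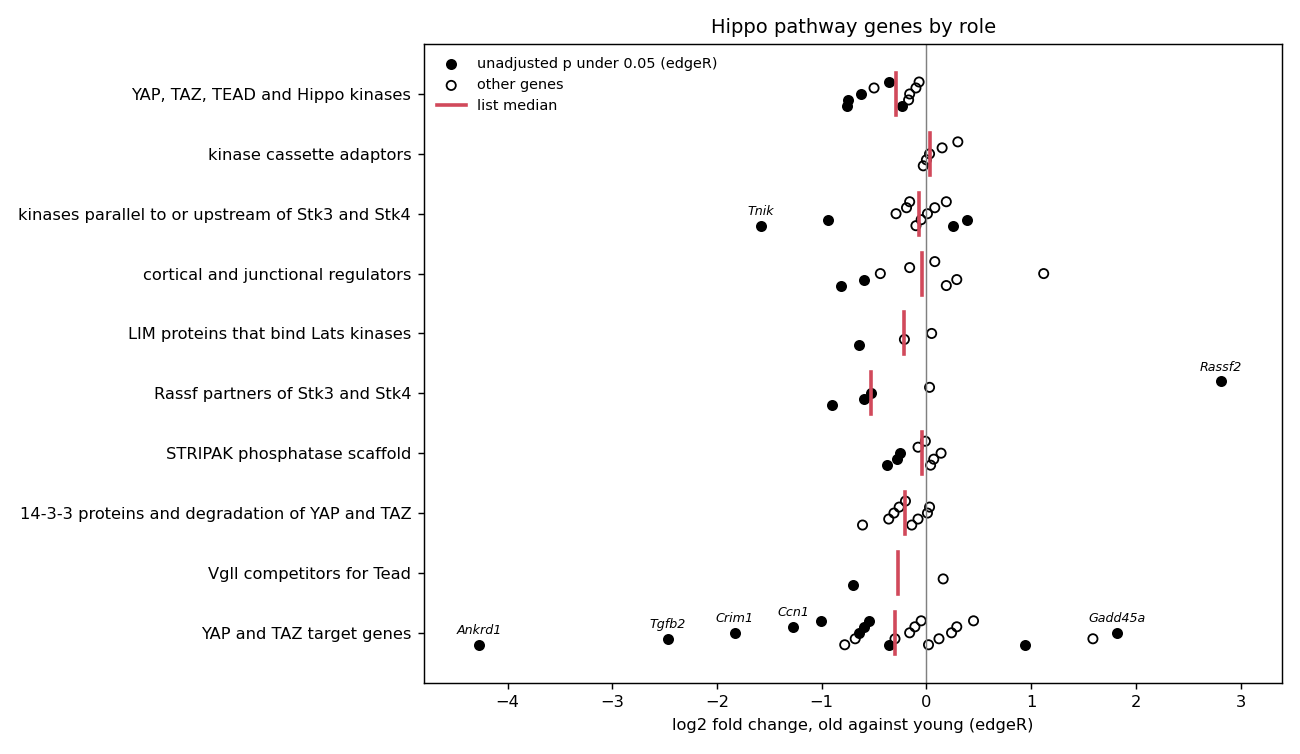
Log2 fold change (old against young, edgeR) of the 10 genes (top row) and of other Hippo pathway genes grouped by role, with filled points for an unadjusted p under 0.05, a red line at the median of each list and names for genes beyond 1.1 at that p. The 10 genes all lie left of 0, the adaptors lie between -0.03 and 0.30 (Sav1), and the target genes spread from Ankrd1 at -4.27 to Gadd45a at 1.82.

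TEAD proteins bind the letters GGAATG, and the stretches below show where these stand before the start of genes whose levels were given above. They are the 250 bases before the gene start in RefSeq (build GRCr8), written 5′ to 3′ on the strand of the gene, with GGAATG, or CATTCC where it lies on the other strand, in capitals. No other motif was searched. Of the 10 genes, 5 had an entry, and Yap1 was the 1 of these with the letters, 116 bases before its start. Of the 23 targets, 16 had an entry and 6 of them the letters, beside 12.1% of all 33469 RefSeq stretches of this length. Yap1 is shown as the member of the set with the letters, and Ccn1, Ccn2 and Amotl2 as targets with them, chosen with their values known. The other targets with the letters were Nuak2, Ajuba and Ptpn14, with log2 fold changes of -1.01, -0.64 and 0.29.
Yap1: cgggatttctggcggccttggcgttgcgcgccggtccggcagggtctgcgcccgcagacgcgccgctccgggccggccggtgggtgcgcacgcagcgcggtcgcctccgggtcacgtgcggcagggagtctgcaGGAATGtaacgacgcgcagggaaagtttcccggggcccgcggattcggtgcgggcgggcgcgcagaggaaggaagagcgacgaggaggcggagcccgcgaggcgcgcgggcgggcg
Ccn1: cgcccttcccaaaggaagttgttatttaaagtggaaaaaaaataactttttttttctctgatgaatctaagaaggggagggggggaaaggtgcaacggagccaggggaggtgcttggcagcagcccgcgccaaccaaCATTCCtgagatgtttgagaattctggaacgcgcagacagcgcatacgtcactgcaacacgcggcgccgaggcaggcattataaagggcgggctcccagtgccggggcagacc
Ccn2: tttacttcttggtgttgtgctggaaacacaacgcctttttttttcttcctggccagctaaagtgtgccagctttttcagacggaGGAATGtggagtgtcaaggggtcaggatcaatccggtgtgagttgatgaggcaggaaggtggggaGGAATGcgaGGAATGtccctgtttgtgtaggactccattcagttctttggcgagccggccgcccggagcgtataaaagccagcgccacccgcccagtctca
Amotl2: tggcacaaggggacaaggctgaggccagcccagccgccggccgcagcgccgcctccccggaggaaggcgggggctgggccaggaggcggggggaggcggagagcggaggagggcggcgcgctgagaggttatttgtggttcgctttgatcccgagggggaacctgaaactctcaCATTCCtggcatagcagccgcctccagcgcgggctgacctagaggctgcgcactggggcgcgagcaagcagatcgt
The stretch of Yap1 is chr8:13451438-13451687 on the minus strand, that of Ccn1 chr2:237225690-237225939 on the minus strand, that of Ccn2 chr1:22624615-22624864 on the minus strand and that of Amotl2 chr8:112182376-112182625 on the plus strand. Ccn2 holds the letters 3 times, at 166, 101 and 92 bases before its start, and its log2 fold change was 0.02 with overlapping groups. Ccn1 and Amotl2 hold them once, and their log2 fold changes were -1.27 and -0.60. A match of letters is a description and does not show that a TEAD protein was bound.

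Other genes differed between these cultures too, and their levels are given here beside those of the 10 genes. All 9 contractile smooth muscle markers listed were in the table. Their summed level was 11273 to 21198 CPM in young and 3470 to 5597 CPM in old. Acta2 and Tagln had the highest means of them in both groups. Des was near the floor, with means of 1.98 CPM in young and 1.84 CPM in old. All 7 fibroblast markers were present, at 245 to 665 CPM summed in young and 1094 to 1996 CPM in old. The 8 proliferation markers summed to 431 to 653 CPM in young and 139 to 465 CPM in old, with old replicate 1 the highest of the old libraries. The 5 skeletal muscle genes found summed to 174 to 391 CPM in young and 36.3 to 67.0 CPM in old, and Pax7, Myod1, Myog, Myh3 and Ckm were not in the table. Of the 5, 4 had a lower mean in old, among them Actn3 near the floor (0.512 CPM in young and 0.386 CPM in old). Tnnt3 went the other way, with means of 10.7 CPM in young and 20.2 CPM in old. Endothelial, macrophage, Schwann cell and pericyte markers summed to at most 18.2, 16.8, 86.4 and 0.975 CPM in any library, and Cdh5, Ptprc, Sox10 and Rgs5 were not in the table. The part of these differences in the levels of the TEAD genes, Yap1 and Lats2 was not tested. In bulk RNA, fewer cells of a type and less RNA per cell cannot be told apart.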

How the data were processed

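RNA of cultured VSM cells from 3 young and 3 old rats was sequenced, with 1 library per rat. The deposited values are raw counts, whole numbers that were not normalized. Per the Methods and the submitters' processing notes, reads were trimmed (cutadapt 3.5, Trim Galore 0.6.7), aligned with STAR 2.7.10b to Rnor 6.0 and counted with featureCounts (Subread 2.0.8). The table names genes by Ensembl identifier, and every gene reaches 10 counts in at least 3 libraries, so low counts had been removed. How strand, mates and reads with several matches were handled is not given in the sources used here. Related genes such as the TEAD genes can share reads, which makes their counts uncertain. Library totals ranged from 44235674 to 59700887, and the 10 genes together had 39279 to 58218 counts per library. Of the counts from 1 to 19, 68.7% to 71.1% were even, as they would be if both mates of a pair were counted, so counting error is larger than the counts imply.

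Old and young were compared over all 14475 genes in R 4.3.3 with edgeR 4.0.16 (TMM, quasi-likelihood F test, age as the only term, Benjamini-Hochberg adjustment). Standard errors were taken from the fold change and F (the size of the log2 value over the root of F). DESeq2 1.42.0 (independent filtering at 0.05) and limma-voom (limma 3.58.1) were run as alternatives, with other normalizations, filters, a replicate block, halved counts and each library left out. The edgeR, DESeq2 and limma-voom fits were checked on simulated counts for the median log2 fold change of the most changed genes. That check covered no other step. Ratios within a library were compared by exact permutation, and no pseudocount was added. The p-values set the difference between the ages against the spread within each age among these 6 cultures. Replicate libraries differed by more than sampling noise (chi-square per gene at least 67.1). The genes, lists and tests were chosen with earlier results of these data known. All 10 genes are named, and of each list up to 3 genes with the lowest edgeR p among those with an unadjusted p under 0.05, plus genes called by DESeq2. Named beyond this rule were the adaptors, Wtip and Limd1, genes on more than 1 list and targets with the letters GGAATG. Some marker genes and the genes marked as named after their values were seen also fall outside it. Gene lengths were not used, so levels are compared between libraries and not between genes.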

Additional observations from a re-analysis of the deposited data

How the results depend on the processing

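Under the 15 alternatives, the count of called genes among the 10 stayed at 0. Over the 14 alternatives that give fold changes, the median of the 10 lay between -0.34 and -0.21, and each log2 fold change kept its sign except that of Stk3, which was 0.07 without young replicate 3 (-0.14 to 0.07 over left-out libraries). The count at an unadjusted p under 0.05 was 2 to 5 with 1 library left out and 3 with the replicate block. The count with separate groups was 5 to 8 with 1 library left out, where groups of fewer libraries separate more easily. The share of all genes was computed for neither count. DESeq2 called 2 of the 52 other Hippo genes and 5 of the 23 target genes, beside 5.56% of all genes. With 1 library left out, edgeR called 0 to 2 and 0 to 3 of them. Without old replicate 1 these counts were 2 and 3, beside 732 of all genes. In the other left-out fits edgeR called none of them and 0 to 5 of all genes. Ratios whose sign turned with 1 library left out were Wwtr1 to Yap1 (-0.04 to 0.14; -0.04 without old replicate 3), Stk4 to Stk3 (-0.26 to 0.03; 0.03 without young replicate 2 and 0.01 without old replicate 1), the share of Tead2 (-0.64 to 0.46; 0.11 without young replicate 3 and 0.46 without old replicate 1) and the share of Tead4 (-0.39 to 0.29; 0.02 without young replicate 2 and 0.29 without old replicate 2). The cause was not tested. The labels give both ages replicate numbers 1 to 3 but no shared origin. Deviations of same-numbered libraries correlated across genes at 0.03, 0.26 and 0.26, and those of differently numbered libraries at -0.4 to 0.29. Whether the numbers mark a pair cannot be told from these values, and the main fit did not use them. With a filter of at least 1 CPM in 3 libraries, edgeR called 65 of all genes and 0 of the 10. Tead2 and Tead4 had 75 to 453 counts per library. Halving the counts left the log2 fold change of Tead2 at -0.49, beside a spread between old libraries of 86.5% of their mean.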

Other observations

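TEAD levels and the levels of YAP and TAZ can be set beside each other in each library, a ratio chosen after the values were seen. The summed CPM of Tead1 to Tead4 divided by the summed CPM of Yap1 and Wwtr1 was 0.450, 0.476 and 0.505 in young replicates 1, 2 and 3 and 0.352, 0.423 and 0.255 in old replicates 1, 2 and 3. The old libraries lay below the young ones, and they spread more widely (0.477 ± 0.0274 in young and 0.343 ± 0.0842 in old, SD, n = 3). The summed level of Yap1 and Wwtr1 was 13.4% lower in old and that of the TEAD genes 38.4% lower. The ratio is over counts that are not corrected for transcript length, so it has meaning between libraries and not as a number of molecules.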
